A study of Mus musculus with 16 samples.

Results

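The MYC, MAX and MXD network was followed in mammary tumors of mice with and without a gene trap in *Resf1*. Its 10 members were taken by name from the genes of the family. They are the activators *Myc*, *Mycn* and *Mycl*, their partner *Max*, and *Mxd1*, *Mxd3*, *Mxd4*, *Mxi1*, *Mnt* and *Mga*, which compete with MYC for MAX. Of these, 9 were among the 23609 genes of the table and all 9 passed the filter on low values that left 21034 genes to test. Expression of *Mycn* was not analysed here.

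MYC proteins bind DNA as pairs with MAX, at the E-box CACGTG, and raise the transcription of genes for ribosome production, metabolism and cell growth. MXD proteins, MNT and MGA take up MAX in pairs of their own at similar sites and mostly repress, through SIN3 and histone deacetylases in the case of MXD proteins and MNT, and through a Polycomb-type complex in the case of MGA. A parallel arm built on MLX shares some of the MXD proteins and follows glucose through MLXIP (MondoA) and MLXIPL (ChREBP). In mammary epithelium, MYC is a well-known driver of tumor growth.

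The tumors arose in mice that all carry the polyoma middle T antigen (PyMT) under the MMTV promoter, which drives it in mammary epithelium. The controls were wildtype at *Resf1* and the others were Resf1 +/- littermates with a lentiviral gene trap in the first exon, which makes an EGFP-cre fusion and truncates the message. The gene trap came from a C57BL/6 line, which the study crossed to FVB mice with the MMTV-PyMT transgene. Wildtype and gene trap littermates of that cross share a mixed strain background. The gene trap mice keep 1 normal copy by genotype, and the ages of the mice are not given in the sources used here. The question addressed was whether a lower level of *Resf1*, whose product the study placed at sequences able to form G-quadruplexes, goes with a different transcriptome. Whether these tumors kept the normal copy was not tested here. In a separate line with a CRISPR deletion in *Resf1*, the study reported that tumors of many animals had lost the wildtype allele. RNA-seq of total RNA covered 16 labelled tumors, 8 per group. The values of 5 wildtype and 5 gene trap tumors were used, since 6 further columns could not be tied to a tumor.

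Values are the deposited estimated counts, scaled between tumors by the median ratio of genes. They summed to between 31995078 and 42153593 per tumor, and the sequencing depth is unknown. The epithelial markers *Epcam* and *Krt8* lay at 19190.3 to 25278 and 16809 to 24801 and so were high in every tumor. Gene trap replicate 2 stood apart on the first principal component, at 91.8 against -18.6 to -4.78 in the other 9 tumors, so fold changes without it are given beside those of the members and lists. In bulk tumors, fewer cells of a type and less RNA per cell cannot be told apart.

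The promoters of the family are shown first because E-boxes are the sites the network reads. RefSeq promoter windows (GRCm38.p6, 250 bases before to 50 bases after the start) matched 9 of the 10 members, *Mycn* included, with 11 windows in all, and *Myc* had none. The E-box CACGTG, which reads the same on both strands, stood in 3 of the 11 windows (27.3%) and in 7.15% of all 32851 windows. Its first base lay 3 bases before the start in *Max*, where it spans the start, 123 before in *Mnt* and 219 before in *Mxd4*. In the MLX arm it was found in *Mlx*, *Arrdc4* and 1 of 2 windows of *Mlxipl*. The member windows were richer in G and C than all windows, as given below, and the shares were not adjusted for this. The stretches with the E-box in capitals are these, each 5′ to 3′ on the strand of its gene.
Max: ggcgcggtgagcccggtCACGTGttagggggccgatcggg
Mnt: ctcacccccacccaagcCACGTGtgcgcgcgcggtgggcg
Mxd4: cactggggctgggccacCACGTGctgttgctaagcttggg
Mlx: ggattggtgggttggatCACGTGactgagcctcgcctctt
Arrdc4: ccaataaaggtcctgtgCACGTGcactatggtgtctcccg

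These lie at chr12:76962229-76962268 on the minus strand (*Max*), chr11:74830784-74830823 on the plus strand (*Mnt*), chr5:34187907-34187946 on the minus strand (*Mxd4*), chr11:101087233-101087272 on the plus strand (*Mlx*) and chr7:68749409-68749448 on the minus strand (*Arrdc4*). *Txnip*, the best known target of the MLX arm, had no CACGTG in its window. It had instead a pair of related hexamers, searched on both strands as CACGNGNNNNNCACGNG and present in 16 of all windows (0.0487%), at chr3:96557855-96557905 on the plus strand. The search letters were set after this window had been read. The pair is in capitals.
Txnip: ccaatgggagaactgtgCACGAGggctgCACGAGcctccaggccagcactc

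Runs of G able to fold into a G-quadruplex were searched as 4 runs of GGG separated by 1 to 7 bases, on either strand. The study placed RESF1 mainly at predicted quadruplexes in transcribed sequences. It also reported RESF1 at the *Klf4* promoter and, in human cells, at exons of *MYC*. The quadruplexes predicted at its top sites were enriched for ones built from shorter G runs than GGG. This search therefore describes the windows at hand and not the sites of the study. The runs stood in 4 of the 11 member windows (36.4%), those of *Mycl*, *Mxd1*, *Mxd3* and 1 of *Mxi1*, and in 18.5% of all windows. The member windows were also richer in G and C, with a median of 64.0% against 52.7% over all windows. The stretches of *Mxd1* (chr6:86669159-86669303, minus strand) and *Mxd3* (chr13:55329764-55329874, minus strand) are shown with each run of 3 or more G in capitals, because each held the motif many times over.
Mxd1: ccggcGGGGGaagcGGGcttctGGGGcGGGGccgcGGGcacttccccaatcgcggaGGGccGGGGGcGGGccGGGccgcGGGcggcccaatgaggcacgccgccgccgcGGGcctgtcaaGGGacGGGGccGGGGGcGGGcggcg
Mxd3: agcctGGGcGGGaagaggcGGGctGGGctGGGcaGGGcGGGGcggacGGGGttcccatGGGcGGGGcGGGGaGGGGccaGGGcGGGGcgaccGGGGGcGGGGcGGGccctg

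These matches describe letters in a window and no binding was measured.

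The trapped gene came first. *Resf1* (ENSMUSG00000032712) was at 4215, 4397, 3881, 4487 and 3517 in wildtype replicates 1 to 5 and at 4029, 3066, 3686, 3392 and 3409 in gene trap replicates 1 to 5. Of the gene trap tumors, 3 lay below every wildtype tumor and 2 lay among them. The log2 fold change was -0.22 (95% interval -0.42 to -0.02), with an exact two-sided permutation p of 0.0635. The limma p was 0.0313 unadjusted and 0.9997 after Benjamini-Hochberg adjustment over all tested genes. When 1 tumor was left out, the unadjusted limma p ran from 0.0100 to 0.0781. By qRT-PCR the study reported less *Resf1* mRNA in gene trap than in wildtype tumors.

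No member of the network passed the test between genotypes. At an adjusted p under 0.05, limma called 0 of 9 members and 0 of 21034 genes (0%), and at an unadjusted p under 0.05 it called 0 of 9 members and 479 genes (2.28%). The groups overlapped in all 9, against 111 genes (0.528%) whose groups did not overlap, and the exact permutation p of the members ran from 0.405 to 1, where 5 against 5 tumors can reach 0.00794. Fold changes on the log2 scale were above 0 in 5 and below 0 in 4, with a median of 0.00 over the members and 0.00 over all tested genes. Without regard to sign the median was 0.05 for the members and 0.10 for all tested genes. Without gene trap replicate 2, 4 members lay above 0 and 5 below, and the log2 fold change was 0.03 for *Myc*, 0.40 for *Mycl*, -0.01 for *Max*, 0.09 for *Mxd1*, -0.06 for *Mxd3* and -0.04 for *Mxi1*. Those of *Mxd4*, *Mnt* and *Mga* without it stand beside their values.

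**Figure D1:**
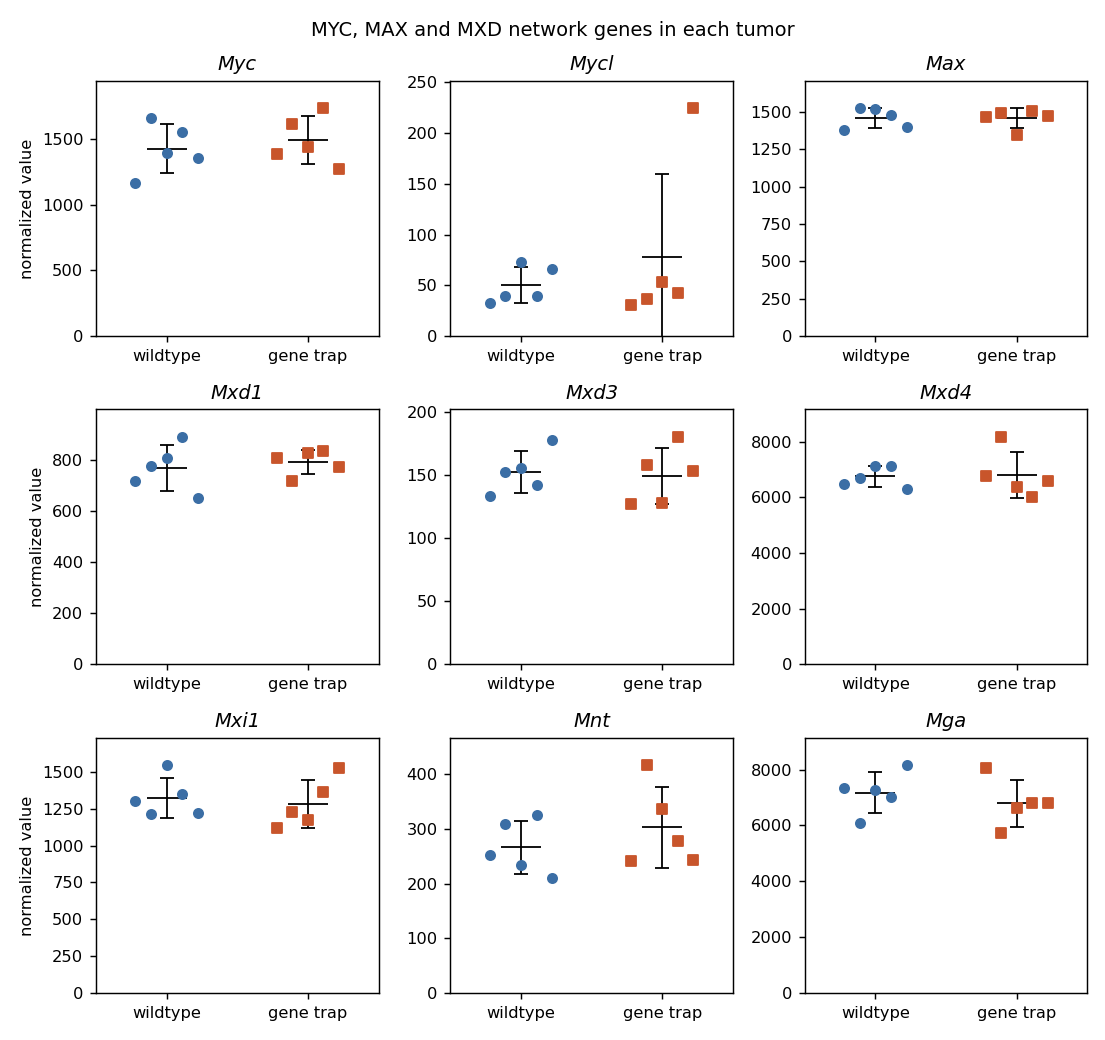
Normalized value (linear axis from 0) of the 9 measured network genes in each of 5 wildtype tumors (blue circles) and 5 gene trap tumors (orange squares), replicates 1 to 5 from left to right, with the mean (long dash) and SD (bars, n = 5). The groups overlap in every panel, and the gene trap square of *Mycl* at 224 is replicate 5; the lower end of that SD bar falls below 0 and is not drawn.

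Among the activators, *Myc* (ENSMUSG00000022346) was at 1166, 1656, 1396, 1556 and 1356 in wildtype replicates 1 to 5. In gene trap replicates 1 to 5 it was at 1389, 1616, 1436, 1732 and 1272. The highest tumor was a gene trap tumor and the lowest a wildtype tumor, and the other 8 were mixed. The means were 1426 ± 189 and 1489 ± 184 (SD, n = 5 each), a log2 fold change of 0.06 with a 95% interval of -0.18 to 0.30 (exact permutation p = 0.587). A rise of more than 1.23-fold or a fall to less than 0.885 of the wildtype level thus lay outside the interval.

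*Pvt1*, the long noncoding RNA next to *Myc* that is known to bear on MYC levels, was at 738, 496, 480.2, 539 and 462 in wildtype replicates 1 to 5. In the gene trap replicates it was at 617, 544, 582, 474 and 549. The 2 groups overlapped over the whole range of the gene trap tumors, and the log2 fold change was 0.04 (95% interval -0.24 to 0.33).

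*Mycl* (ENSMUSG00000028654), the L-MYC activator first found in lung cancer, was the member with the lowest level and the widest spread. It was at 32.6, 39.8, 72.5, 39.1 and 66.5 in wildtype replicates 1 to 5 and at 30.8, 36.3, 53.0, 42.8 and 224 in gene trap replicates 1 to 5. Apart from gene trap replicate 5, every tumor lay between 30.8 and 72.5. That tumor was 4.89 times the mean of the other 9 and 3.09 times the highest of them. The log2 fold change was 0.24 (95% interval -0.79 to 1.27) with this tumor and -0.25 without it, so a single tumor set its direction.

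The genes beside *Mycl* on the chromosome were read in the same tumor, a check chosen after the value of *Mycl* was seen. The 3 nearest tested genes on each side were *Ppt1*, *Cap1*, *Mfsd2a*, *Trit1*, *Bmp8b* and *Ppie*. In gene trap replicate 5 they were at 0.902 to 1.35 times the mean of the other tumors, and each lay within the range of the other 9. The order of genes was taken from the RefSeq table. The DNA copy number was not measured, and the cause of the *Mycl* value was not tested.

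**Figure D2:**
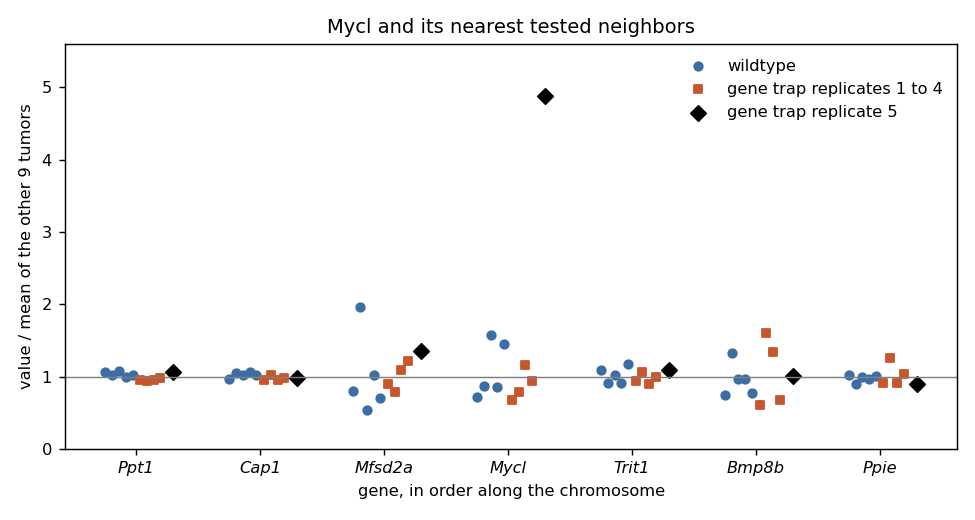
Value of *Mycl* and of its 3 nearest tested genes on each side, in order along the chromosome, divided by the mean of the 9 tumors other than gene trap replicate 5 (linear axis; grey line at 1). Blue circles are wildtype tumors, orange squares gene trap replicates 1 to 4 and the black diamond gene trap replicate 5, which stands at 4.89 for *Mycl* and at 0.902 to 1.35 for the neighbors.

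*Max* (ENSMUSG00000059436), the partner shared by all the other members, was the steadiest member. Its values were 1377, 1524, 1518, 1476 and 1400.4 in wildtype replicates 1 to 5. In gene trap replicates 1 to 5 they were 1468, 1493, 1346, 1509 and 1476. The coefficient of variation over the 10 tumors was 4.27%, and only 0.699% of all tested genes had a smaller SD on the log2 scale. The group means were 1459 ± 67.4 and 1459 ± 64.7 (SD, n = 5 each). The 95% interval of the log2 fold change ran from -0.14 to 0.14, the narrowest of the 9.

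The MXD genes came next, repressors that rise in many cells when they stop dividing. *Mxd4* (ENSMUSG00000037235) was at 6487, 6703, 7124, 7143 and 6307 in wildtype replicates 1 to 5. It was at 6774, 8175, 6372, 6025 and 6600.3 in gene trap replicates 1 to 5, where replicate 2 was the highest and replicate 4 the lowest of all 10 tumors. With all tumors the log2 fold change was 0.00 (95% interval -0.18 to 0.19), and it was -0.07 without gene trap replicate 2.

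*Mxi1* (also known as MXD2; ENSMUSG00000025025) was at 1304, 1214, 1546, 1348 and 1219 in wildtype replicates 1 to 5 and at 1121, 1231, 1171, 1362 and 1529 in gene trap replicates 1 to 5. Of the gene trap tumors, 2 lay below every wildtype tumor and none above, for a log2 fold change of -0.05 (95% interval -0.27 to 0.17).

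*Mxd1* (ENSMUSG00000001156), the founding member of the MXD family, lay at 649 to 889 in wildtype tumors (median 774) and at 718 to 836 in gene trap tumors (median 805). All 5 gene trap values fell inside the wildtype range. *Mxd3* (ENSMUSG00000021485), which unlike the other MXD genes is known to be expressed in dividing cells, lay at 133 to 177 in wildtype tumors (median 152) and at 127 to 180.1 in gene trap tumors (median 153). The log2 fold changes were 0.05 (95% interval -0.15 to 0.25) for *Mxd1* and -0.03 (-0.34 to 0.27) for *Mxd3*.

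*Mnt* (ENSMUSG00000000282), a broadly expressed antagonist of MYC, had the largest shift in means after *Mycl*. It was at 253, 309, 234, 325 and 209 in wildtype replicates 1 to 5 and at 241, 416, 336, 279 and 243 in gene trap replicates 1 to 5. Gene trap replicates 2 and 3 lay above every wildtype tumor and the other 3 lay among them. Its log2 fold change was 0.17 (95% interval -0.21 to 0.56; exact permutation p = 0.405), and it was 0.05 without gene trap replicate 2.

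*Mga* (ENSMUSG00000033943), the scaffold that brings MAX into a Polycomb-type repressor complex, was at 7327, 6101, 7255, 7034 and 8156 in wildtype replicates 1 to 5. In gene trap replicates 1 to 5 it was at 8076, 5717, 6617, 6809 and 6789. Gene trap replicate 2 was the lowest of all 10 tumors, and the other 4 gene trap tumors lay within the wildtype range. The log2 fold change was -0.08 (95% interval -0.30 to 0.14; exact permutation p = 0.476), and it was -0.02 without gene trap replicate 2.

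**Figure D3:**
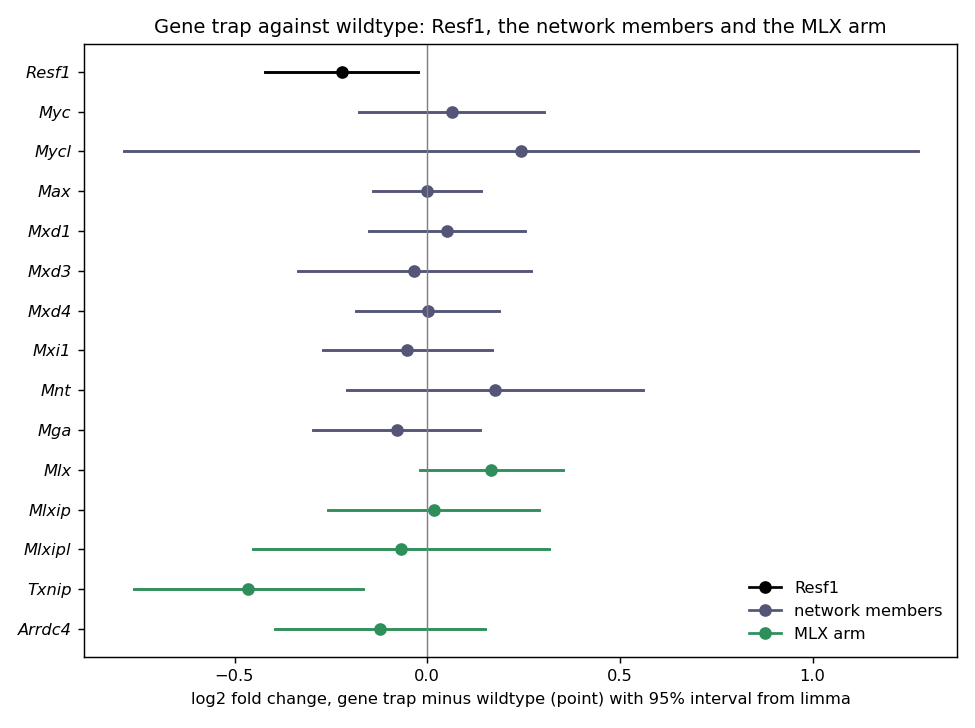
Log2 fold change of gene trap minus wildtype tumors (points) with the 95% interval from limma (lines) for *Resf1* (black), the 9 network members (grey-blue) and the 5 genes of the MLX arm (green); the grey line marks 0. The intervals of all 9 members span 0, that of *Max* is the narrowest of them at -0.14 to 0.14, and those of *Resf1* and *Txnip* lie below 0 before any adjustment for the number of genes.

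Levels were compared between members per kilobase of the longest protein-coding transcript (GENCODE release 21), a scale on which the choice of transcript bears. *Mxd4* had the highest level, at 1749 ± 156 (SD, n = 10) per kb, followed by *Max* at 751 ± 32.1, *Myc* at 623 ± 76.6 and *Mga* at 502 ± 55.3. *Mxi1* followed at 259 ± 28.6, *Mxd1* at 167 ± 14.9, *Mxd3* at 113 ± 14, *Mnt* at 62.0 ± 13.6 and *Mycl* at 18.2 ± 16.6. Each gene was above the next in all 10 tumors, except *Myc* over *Mga* in 8 and *Mnt* over *Mycl* in 9, so only these 2 neighboring pairs overlapped in order.

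**Figure D4:**
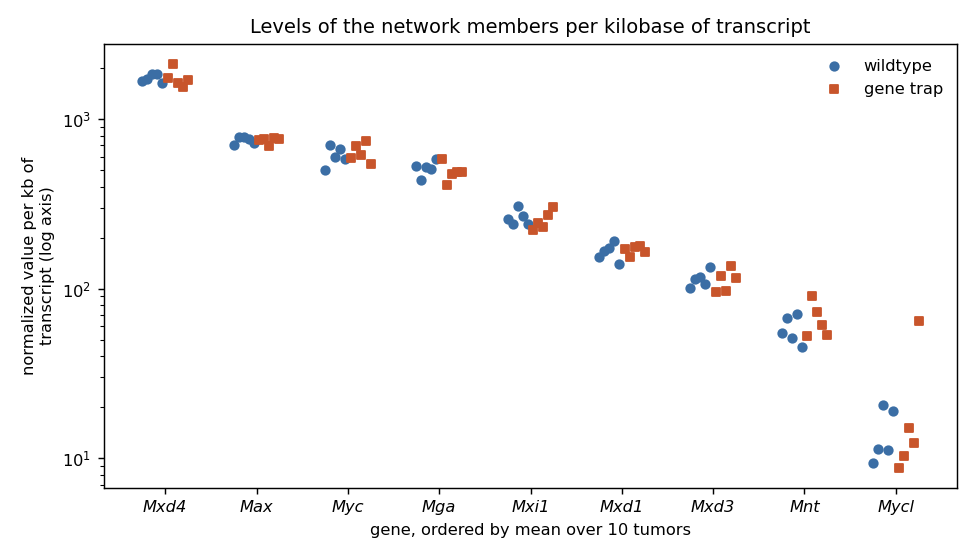
Normalized value per kb of transcript (log axis) of the 9 measured members, ordered by their mean, with each wildtype tumor as a blue circle and each gene trap tumor as an orange square. Levels fall from 1749 per kb for *Mxd4* to 18.2 per kb for *Mycl*, and the genotypes lie over each other in every column.

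The transcripts that compete for MAX were then summed per kb in each tumor. *Mxd4* made up 48.3% to 51.1% of this sum in wildtype tumors and 45.2% to 55.1% in gene trap tumors. *Myc* made up 15.2% to 20.4% and 15.8% to 21.5%. The sum was 4.43 to 4.82 times the level of *Max* in wildtype tumors and 4.43 to 4.98 times in gene trap tumors. All of these ranges overlapped between genotypes, and they are shares of transcripts, not of protein.

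The smallest unadjusted p of all listed genes was in the MLX arm. *Txnip*, which restrains glucose uptake and is induced by MLXIP with MLX, was at 13618, 13182, 19661, 17489.5 and 17866 in wildtype replicates 1 to 5. It was at 12257, 13417, 10425, 13537 and 9516 in gene trap replicates 1 to 5. Of the gene trap tumors, 3 lay below every wildtype tumor, and the other 2 lay between wildtype replicates 2 and 1. The log2 fold change was -0.46 (standard error 0.14; 95% interval -0.76 to -0.17), with an exact permutation p of 0.0317, an unadjusted limma p of 0.00529 and an adjusted p of 0.9997, so it did not pass the test. Among the fits that left out 1 tumor each it ran from -0.54 to -0.39.

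The fat markers *Adipoq* and *Fabp4* were high in some of the same wildtype tumors. *Adipoq* was at 147, 152, 573, 215 and 443 in wildtype replicates 1 to 5 and at 286, 232, 162, 242 and 50.8 in gene trap replicates 1 to 5. *Fabp4* was at 3555 and 3403 in wildtype replicates 3 and 5, against 499.7 to 2675 in the other 8 tumors. Wildtype replicates 3 and 5 thus had the highest values of *Txnip* and of both fat markers, and gene trap replicate 5 had the lowest of all 3. Of the 8 adipocyte and muscle genes listed, 5 were measured and tested, with log2 fold changes above 0 in 2 and below 0 in 3. The muscle gene *Acta1* had a log2 fold change of 0.08 and reached 4520 in wildtype replicate 5. The sum over the list thus holds muscle as well as fat genes. It ran from 1624 to 12299 in wildtype and from 2144 to 5693 in gene trap tumors, with no measured marker at 0. The part of these cells in the *Txnip* difference was not tested.

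The other genes of the MLX arm showed no difference of this size. *Mlx*, the MAX-like partner of the arm, was at 1284, 1403, 1152, 1069.7 and 1113 in wildtype replicates 1 to 5 and at 1327, 1378, 1269, 1303 and 1457 in gene trap replicates 1 to 5. Only gene trap replicate 5 was above the wildtype range, and the log2 fold change was 0.17 (95% interval -0.02 to 0.35; exact permutation p = 0.0873). *Arrdc4*, an arrestin-like relative of *Txnip* under the same control, had a log2 fold change of -0.12 (-0.40 to 0.15), *Mlxip* one of 0.02 (-0.26 to 0.29) and *Mlxipl* one of -0.07 (-0.45 to 0.32). Both sensors had their lowest value of all 10 tumors in gene trap replicate 5, at 1373 for *Mlxip* and 86.5 for *Mlxipl*. Without gene trap replicate 2 the log2 fold change was -0.51 for *Txnip*, 0.16 for *Mlx*, -0.07 for *Arrdc4*, -0.01 for *Mlxip* and -0.09 for *Mlxipl*. Of the 5 genes of the arm, 0 passed the adjusted test, 1 (*Txnip*) was lower at an unadjusted p under 0.05 and 0 were higher.

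The genes that act around the network were described by list. Among 15 cofactors and corepressors, 0 had an unadjusted p under 0.05, 9 lay above 0 and 6 below, and the median log2 fold change was 0.02. The 3 with the smallest p were *Kat2a*, a histone acetyltransferase that MYC recruits (0.11), *Hdac2*, a histone deacetylase of the SIN3 complex (-0.06), and *Ruvbl1*, an ATPase of the TIP60 complex (0.08). Leaving out gene trap replicate 2, 8 lay above 0 and 7 below, with *Hdac2* at -0.01 and *Ruvbl1* at -0.00.

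Among 13 genes that set the stability of MYC protein, 0 had an unadjusted p under 0.05 and the median was -0.02. The leading ones were *Set* (0.12), an inhibitor of the phosphatase PP2A, the deubiquitinase *Usp28* (-0.13) and *Cip2a* (-0.15), which also holds PP2A off MYC. With gene trap replicate 2 left out they were at 0.04, -0.07 and -0.04. MYC protein itself was not measured.

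Among 10 genes that act on *Myc* transcription, 9 lay above 0 with a median of 0.04, and 0 had an unadjusted p under 0.05. *Fubp1*, a single-strand DNA binding protein that acts on the far upstream element of *Myc*, was at 8338, 7482, 7538, 6902 and 8931 in wildtype replicates 1 to 5. In gene trap replicates 1 to 5 it was at 10068, 8993, 7669.6, 8882 and 9111. Gene trap replicates 1, 2 and 5 lay above every wildtype tumor, and the log2 fold change was 0.19 (95% interval -0.01 to 0.39; exact permutation p = 0.0556). The next in order was *Ctnnb1* (-0.08), the β-catenin gene. Leaving out gene trap replicate 2, 6 of the 10 lay above 0, with *Fubp1* at 0.19 and *Ctnnb1* at -0.01.

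The partners of MGA in its complex numbered 12, with 0 at an unadjusted p under 0.05, 7 above 0, 5 below and a median of 0.02. The leading ones were the Polycomb-group genes *Pcgf6* (0.13), *Rybp* (-0.09) and *Ring1* (0.19). The value of *Ring1* rested on gene trap replicate 2, at 1144 against 501 to 676 in the other 9 tumors. Without that tumor the log2 fold change was 0.00 for *Ring1* and -0.03 for *Rybp*. Of 12 germline genes known to be silenced by this complex, 5 were in the table and 2 passed the filter. These were *Tdrkh*, a piRNA pathway gene, at 168 to 221 in wildtype and 185 to 273 in gene trap tumors, and *Sycp1*, a part of the synaptonemal complex, at 52.1 to 111 and 76.7 to 93.6. The other 3, *Ddx4*, *Slc25a31* and *Stag3*, lay under the filter, between 0.634 and 12.5.

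Genes activated by MYC were measured for 29 of 30, and 24 lay above 0 and 5 below, with a median log2 fold change of 0.06 against 0.00 over all tested genes. None had an unadjusted p under 0.05. Most of these genes varied together with *Myc* over the tumors, as given below, so the 29 directions are not separate observations. The leading ones were the glycolytic enzyme *Hk2* (0.29, 95% interval -0.07 to 0.64), *Polr1b*, a subunit of RNA polymerase I (0.15, -0.04 to 0.33), and *Gnl3*, a nucleolar GTPase (0.12, -0.06 to 0.30). *Hk2* was at 2055 in gene trap replicate 4 and at 926 to 1519 in the other 9 tumors. Of 8 genes repressed by MYC, 3 lay above 0 and 5 below with a median of -0.07 and 0 at an unadjusted p under 0.05. They were led by *Thbs1*, an inhibitor of angiogenesis (-0.23), *Cdkn2b*, an inhibitor of CDK4 and CDK6 (-0.19), and *Gadd45a*, a stress gene (0.13). In the fit that left out gene trap replicate 2, 20 of the 29 activated genes lay above 0 with a median of 0.03. Of the 8 repressed genes, 3 then lay above 0 with a median of -0.09, and *Gadd45a* was at 0.03. A figure legend of the study reports MYC-target gene sets as raised in mouse and human cell lines depleted of RESF1. Those cell lines were not examined here.

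Cell cycle genes lay below 0 in 9 of 10, all close to it, with a median of -0.03 and the lowest at -0.10. The leading ones were *Birc5* (-0.08), *Mki67* (-0.10) and *Mcm5* (-0.07), and 0 of 10 had an unadjusted p under 0.05. With gene trap replicate 2 left out, 7 of 10 lay below 0 and *Mki67* was at -0.02.

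The cell types of the tumors were read from marker lists. Summed epithelial markers, 8 of 8 tested, lay at 115383 to 148779 in wildtype and 116680 to 145984 in gene trap tumors, with the leading genes *Elf5* (-0.13), *Ehf* (-0.07) and *Krt18* (0.13). Summed fibroblast markers, 8 of 8 tested, lay at 39804 to 85483 and 52801 to 121680.0, with the leading genes *Col1a2* (0.23), *Col1a1* (0.23) and *Pdgfrb* (0.09). Both sets overlapped between genotypes.

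For endothelium (6 of 6 tested) the sums were 2635 to 5050.1 and 2629.8 to 4627, led by *Cdh5* (-0.14), *Pecam1* (-0.13) and *Tek* (-0.14). For macrophages (6 of 6 tested) they were 7729.8 to 12486 and 8086 to 11413, led by *C1qb* (-0.10), *Cd68* (-0.12) and *Adgre1* (-0.11). For T and B cells (4 of 7 measured, 3 tested) they were 61.3 to 185 and 56.2 to 327, led by *Cd3e* (-0.39), *Cd8a* (-0.14) and *Cd4* (0.01). No measured marker was at 0, and 0 marker genes of these 5 lists had an unadjusted p under 0.05. Without gene trap replicate 2 that count was also 0, *Krt18* was at -0.01, *Pdgfrb* at 0.18, *Cdh5* at -0.03, *Pecam1* at -0.01, *Tek* at -0.01, *C1qb* at -0.15, *Cd68* at -0.19, *Adgre1* at -0.07, *Cd8a* at -0.06 and *Cd4* at 0.01. All 8 fibroblast markers then lay above 0, where 7 did with all tumors.

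How the members vary together was asked over the 10 tumors. For *Myc* with each of the 8 others, Pearson's r was highest with *Mnt* (0.59) and *Max* (0.58) and lowest with *Mga* (-0.55), and none of the 8 passed a permutation test after Benjamini-Hochberg adjustment. With *Mnt* r was 0.59 (p = 0.0747) and Spearman's rho 0.59 (p = 0.0803), with *Max* r was 0.58 (p = 0.0811) and rho 0.65 (p = 0.0492), and with *Mga* r was -0.55 (p = 0.101) and rho -0.60 (p = 0.0733). The adjusted permutation p over the 8 pairs was 0.268 for r and 0.194 for rho in each of these 3 pairs. The 2 tumors farthest from the median of *Myc* were gene trap replicate 4 and wildtype replicate 1. Without them r was 0.77, 0.34 and -0.66 for *Mnt*, *Max* and *Mga*, and centred within genotype it was 0.57, 0.59 and -0.53.

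The other pairs of *Myc* had weaker relations. Pearson's r was 0.41 with *Mxd3*, 0.40 with *Mxd1*, 0.19 with *Mxd4*, -0.17 with *Mxi1* and -0.34 with *Mycl*, with adjusted permutation p of 0.409 to 0.625. Their rho was 0.33, 0.56, 0.13, -0.05 and -0.10, with adjusted permutation p of 0.194 to 0.894. This order did not hold without the 2 tumors farthest from the median of *Myc*. There r was -0.72 with *Mycl* and 0.55 with *Mxd4*, both larger in size than the 0.34 with *Max*. With *Mxd3* it was -0.04, with *Mxd1* 0.16 and with *Mxi1* -0.36.

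Of all 36 pairs of members, *Mnt* and *Mga* had the strongest relation, a pair singled out after the values were seen. Tumors with more *Mnt* had less *Mga*, with r of -0.84 (permutation p = 0.00173, adjusted over 36 pairs 0.0623) and rho of -0.81 (p = 0.00719, adjusted 0.259). Centred within genotype r was -0.83, without gene trap replicate 2 it was -0.74, and without gene trap replicate 2 and wildtype replicate 5, the 2 tumors farthest from the median of *Mnt*, it was -0.62. *Mga* has a transcript of 13931 bases and *Mnt* one of 4590 bases. The study set a minimum RNA integrity for its libraries, values of single tumors were not used here, and the part of RNA quality in the relation was not tested.

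**Figure D5:**
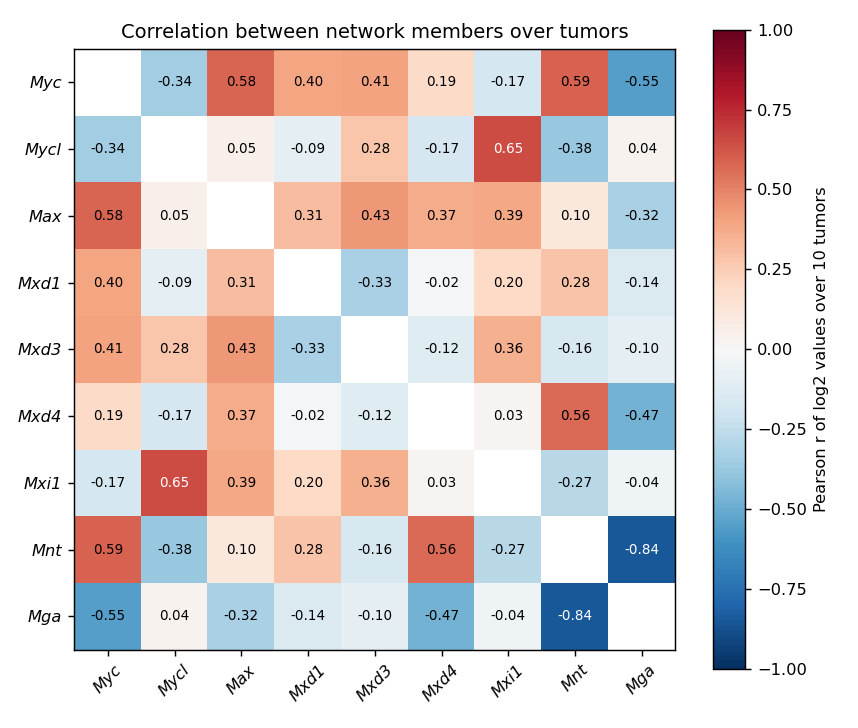
Pearson's r of log2 values over 10 tumors for each pair of the 9 measured members, as a color from blue (-1) to red (1) with the value printed in each cell. The pair of *Mnt* and *Mga*, at -0.84, is the strongest, and *Myc* has its highest values with *Mnt* (0.59) and *Max* (0.58).

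Over the 16174 genes with a mean of at least 50, those most like *Myc* over the 10 tumors were *Rcc1* (r = 0.93), *Tmem229b* (0.93), *Mapre1* (0.93), *Ppm1g* (0.93) and *Ipo4* (0.92). Without gene trap replicate 2 these values were 0.92, 0.93, 0.92, 0.98 and 0.93. *Rcc1*, the chromatin-bound exchange factor of the GTPase RAN, was on the list of MYC-activated genes, and *Ipo4* carries proteins into the nucleus. Of the 29 measured MYC-activated genes, 28 had a positive r with *Myc*, and *Tert*, the telomerase gene, was the exception at -0.46. Their median r was 0.54, where the median over all these genes was 0.04 and 53.1% had a positive r. Without gene trap replicate 2 the count was 27 of 29 and the medians were 0.51 and 0.09. These values are descriptions, since all genes share the same 10 tumors and their scaling.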

How the data were processed

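The authors deposited, for primary mammary tumors, a table of estimated counts per gene already normalized by the median ratio method, a signal with fractional values and 0 zeros, so whole reads could not be recovered. The submitters' processing notes name Partek, STAR 2.7.8a, DESeq2 and the build mm39. Libraries were made with a stranded total RNA kit. Of 16 columns, 10 matched a tumor label and 6 were not used.

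The tested quantity was log2(value + 1), which shrinks the fold changes of low genes, and a mean of 10 or more over the tumors was required. Genotype was tested with limma 3.58.1 in R 4.3.3 under a variance trend, without covariates, and p-values were adjusted over all 21034 genes by the Benjamini-Hochberg method. Single genes were also tested by exact two-sided permutation of the 252 arrangements, and correlations with 100000 resamples. The labels do not say whether each tumor came from a separate mouse, so p-values measure the spread between tumors. Replicate numbers did not pair the tumors.

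The members and lists were chosen with earlier results of these data known. Named genes are the members, *Resf1*, *Pvt1*, *Mlx*, *Mlxip* and *Mlxipl*, the 3 genes of each other list with the smallest unadjusted p, and the 5 genes most like *Myc*, of which 1 gene of a list is not reported here. Other names were picked later, with values in view. The neighbors of *Mycl*, the G-run and hexamer searches, the sums per kb and the balance of long and short transcripts were also added then. Promoters are from RefSeq (GRCm38.p6), used for sequence only. Code was tested on simulated data. Alternatives were each tumor left out, a replicate block, pseudocounts of 0.5 and 8, no filter, a filter at 50, quantile normalization, no variance trend and weights per tumor. Figures used matplotlib 3.10.9.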

Additional observations from a re-analysis of the deposited data

Results flagged for a closer look

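In the groups of 5 tumors of the 62 genes examined, 124 groups in all, 17 single values stood far from the other 4 of their group by Dixon's ratio, where chance flags about 1 group in 20 (6.2 here). Among the members these were *Mycl* in gene trap replicate 5, at 224.4 against 30.8 to 53.0, and *Max* in gene trap replicate 3, at 1346 against 1468 to 1509. *Epcam* was also high in gene trap replicate 5, at 25278 against 21412 to 22314. Some of the 62 genes were picked with values in view and some vary together, so 17 against 6.2 is not a test.

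In gene trap replicate 3, the T cell genes *Cd3e* (32.5 against 3.68 to 10.5), *Cd8a* (124 against 17 to 36.7) and *Cd4* (140.4 against 29.2 to 49.999) were high together, and so was the cohesin gene *Stag3* (12.5 against 3.34 to 5.19). In gene trap replicate 2, *Ring1* was high at 1144 (501 to 669) and *Ctnnb1* low at 20164 (24484 to 26049). In gene trap replicate 1, *Col1a2* was high at 30488 (13511 to 16255) and *Adgre1* at 966 (627 to 678). *Hk2* was high in gene trap replicate 4 at 2055 (1264 to 1435).

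Among wildtype tumors, *Pvt1* was high in replicate 1 at 738 (462 to 539), where *Myc* was lowest. *Cip2a* was high in replicate 5 at 1602 (1048 to 1209) and so was *Ddx4* at 8.66 (3.59 to 4.94). In replicate 4, *Pcgf6* was low at 419.99 (512 to 546) and *Gnl3* at 1798 (2119.5 to 2228).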

How the results depend on the processing

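Over 18 alternatives, 0 members and 0 genes passed an adjusted p under 0.05, and 0 members an unadjusted p under 0.05. The number of genes at an unadjusted p under 0.05 was 479 and ran from 308 to 692 when 1 tumor was left out (308 without wildtype replicate 4) and from 326 to 580 otherwise. With the replicate block it was 426, and *Fubp1* had an unadjusted p of 0.0428 against 0.0574. With 0 calls in either fit, this paired fit had no call to change. Samples with the same number did not deviate together (mean correlation -0.01).

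*Mnt*, *Mga*, *Txnip*, *Mlx*, *Arrdc4*, *Fubp1* and *Resf1* kept their direction in all 18. When 1 tumor was left out, the log2 fold change crossed 0 for *Myc* (-0.0060 to 0.12), *Mycl* (-0.25 to 0.46), *Max* (-0.021 to 0.028), *Mxd1* (-0.0071 to 0.11), *Mxd3* (-0.10 to 0.023), *Mxd4* (-0.067 to 0.043), *Mxi1* (-0.12 to 0.0056), *Mlxip* (-0.044 to 0.14), *Mlxipl* (-0.15 to 0.053) and *Pvt1* (-0.0095 to 0.16). With weights per tumor it was -0.058 for *Mxd4* and -0.0053 for *Mlxip*. The cause was not tested. Pearson's r with *Myc* changed sign for *Mxd3* (-0.036 without the 2 tumors farthest from the *Myc* median) and for *Mxd4* (-0.10 without gene trap replicate 2). The 95% intervals cover differences of up to 1.10-fold for *Max* and up to 2.42-fold for *Mycl*, and depth per tumor is unknown.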

Other observations

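The balance of long and short transcripts, a comparison not set in advance, differed between tumors. The median of 829 genes with a transcript of at least 8000 bases, less that of 5415 genes under 1500 bases, each as a log2 deviation from the gene's own median, ran from -0.09 in wildtype replicate 2 to 0.15 in gene trap replicate 1. Of 9 relations with the members, that of *Max* was among the strongest, with r of -0.68 (permutation p = 0.0267, adjusted 0.12) and rho of -0.84 (p = 0.00363, adjusted 0.0327). Without the 2 tumors farthest from the median balance r was -0.90. *Mxd3* had r of -0.72 (p = 0.0205, adjusted 0.12) and rho of -0.54 (p = 0.113, adjusted 0.319), and without the same 2 tumors r was -0.40. For *Mga* r was 0.53 (adjusted permutation p = 0.268) and for *Mnt* -0.14 (adjusted permutation p = 0.781). *Mxd3*, with 1327 bases, and *Mga*, with 13931, are themselves among the short and the long genes of the balance. RNA integrity values of single tumors were not used here.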
